A study of Mus musculus with 12 samples.

Results

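Sp7, Dlx3, Dlx5, Dlx6, Msx1, Msx2, Foxa2 and Foxa3 are 8 transcription factor genes of skeletal and cartilage differentiation, taken here by name from the 23575 genes of the RNA-seq tables. Each gene was read from its RefSeq transcript with the highest count, and all 8 passed the filter on low counts. Methylation was read at 703 CpG cytosines in these genes and up to 5000 bases around them that were covered at least 10 times in every library. The cells were articular chondrocytes of C57BL/6J mice aged 5 to 6 days, isolated from tibial plateaus and femoral heads. They had been expanded as a monolayer in DMEM/F12 with 10% FBS and then formed into pellets, 3-dimensional aggregates, kept with ascorbic acid and ITS (insulin, transferrin and selenium). Pellets were harvested at Week 1 (day 7) or Week 3 (day 21), with 3 RNA-seq libraries and 3 libraries of enhanced reduced representation bisulfite sequencing (ERRBS) per week. No strain, genotype or added agent differed between the weeks, so time in pellet culture was the one labelled difference.

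Sp7, also called osterix, is a zinc finger factor that acts downstream of Runx2 and is required for osteoblasts and for the mineralising stage of hypertrophic chondrocytes. The Dlx and Msx genes encode homeodomain proteins that bind similar AT-rich sites. Dlx5 and Dlx6 lie side by side in opposite orientation and promote chondrocyte hypertrophy and bone formation, Dlx3 acts in osteoblasts, in hair and in skin, and Msx1 and Msx2 are BMP-responsive genes of skull, tooth and limb. Foxa2 and Foxa3 are forkhead factors best known from liver and gut, and Foxa2 with Foxa3 also promotes hypertrophic gene expression in growth plate cartilage.

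RNA-seq gene totals were 14361717 to 19774665 counts per library, and 3 counts corresponded to 0.161 to 0.202 CPM, the count scaled to library size. Replicate 2 of each week stood apart from replicates 1 and 3, with a chi-square per gene of 10.8 to 19.6 against them, compared with 3.43 and 3.73 between replicates 1 and 3. The defining cartilage genes Col2a1, Acan and Sox9 averaged 11881, 2111 and 67.6 CPM at Week 1, so the defining markers of the labelled cell type were present. Of 14323 genes tested with edgeR, 37.4% differed between weeks, 19.7% higher and 17.8% lower at Week 3, and the median log2 change of all of them was -0.01. ERRBS coverage at shared cytosines had a median of 17 to 66 reads per library. Whether replicates came from separate cultures or animals is not stated in the labels. The p-values therefore reflect only the spread among these libraries, which may be technical. In bulk pellets, a change in the number of expressing cells and a change in RNA per cell cannot be told apart.

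In total, 5 of the 8 genes were higher at Week 3 and 0 were lower, against 19.7% of all tested genes higher and 17.8% lower. Dlx6 entered the test only through its Week 3 counts, and without it 4 of 7 were higher. Sp7, Dlx3, Dlx5 and Dlx6 rose between 4.78-fold and 7.76-fold, and Foxa3 rose 2.2-fold. Msx1, Msx2 and Foxa2 did not pass an adjusted p of 0.05 in edgeR's quasi-likelihood test. In each gene that rose, every Week 3 library was above every Week 1 library, while the weeks overlapped in the other 3 genes, as the plot of library values shows.

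**Figure D1:**
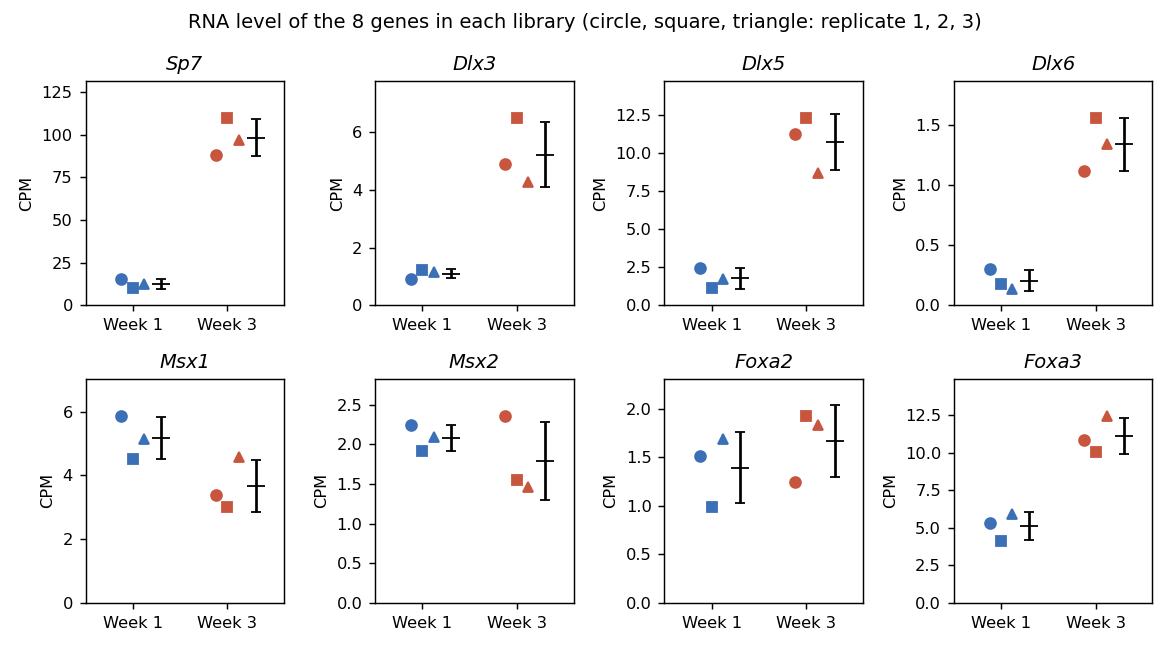
Level of each gene in CPM (vertical axes, from 0, scaled per gene) in the 3 libraries of Week 1 (blue) and of Week 3 (red), with circle, square and triangle for replicates 1, 2 and 3 and the black bar for mean ± SD. Sp7, Dlx3, Dlx5, Dlx6 and Foxa3 show no overlap between weeks, and Msx1, Msx2 and Foxa2 do.

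Sp7 (mm10 chromosome 15, bases 102356603 to 102366333, minus strand, 2 exons) had 15.7, 9.87 and 12.6 CPM in the Week 1 libraries and 88.2, 109.7 and 97.3 CPM in the Week 3 libraries. The lowest Week 3 library was thus several times the highest Week 1 library. The means were 12.7 ± 2.90 and 98.4 ± 10.8 CPM (SD, n = 3), a log2 change of 2.96 ± 0.15 (SE, 95% interval 2.60 to 3.31, edgeR adjusted p = 7.49e-06). These values rest on 615 reads at Week 1 and 4994 at Week 3. Sp7 was below Runx2, the factor upstream of it, at Week 1 and above it at Week 3: per kb of exon, its level was 0.624 to 0.737 times that of Runx2 in the Week 1 libraries and 1.55 to 1.59 times in the Week 3 libraries. Runx2 itself rose 3.32-fold. That ratio compares 2 genes within each library and was not given a test.

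The other Sp genes encode zinc finger proteins that bind GC boxes, and none of them was called higher. Of 8 such genes, 5 passed the filter, 0 rose and 1 fell, against 19.7% and 17.8% of all genes. Sp4 fell from 49.4 ± 3.33 to 37.9 ± 2.38 CPM (SD, n = 3; log2 change -0.38 ± 0.08, edgeR adjusted p = 0.0035). Sp1 averaged 232 and 226 CPM, Sp3 175 and 166 CPM, Sp2 4.58 and 4.86 CPM and Sp6 2.28 and 2.71 CPM at Weeks 1 and 3, none of them past the test. Sp5, Sp8 and Sp9 had 0 counts in all 6 libraries. A difference in change between Sp7 and these genes was not tested.

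Dlx5 (chromosome 6, bases 6877801 to 6882068, minus strand, 3 exons) had 2.48, 1.10 and 1.75 CPM at Week 1 and 11.3, 12.3 and 8.72 CPM at Week 3. All 3 Week 3 libraries lay well above the Week 1 libraries, among which replicate 2 was the lowest. The mean rose from 1.78 ± 0.688 to 10.8 ± 1.84 CPM (SD, n = 3), a log2 change of 2.60 ± 0.25 (SE, edgeR adjusted p = 6.26e-05). Dlx6 (bases 6863334 to 6867970 of chromosome 6, plus strand, 4 exons), its neighbour, had 5, 3 and 2 reads at Week 1 and 17, 29 and 22 at Week 3. Its Week 1 level of 0.204 ± 0.087 CPM was close to the worth of 3 counts, and the gene passed the low-count filter only through Week 3. Its Week 3 level was 1.34 ± 0.220 CPM (log2 change 2.66 ± 0.39, edgeR adjusted p = 0.000585, and 0.000193 with no filter on low counts, range over the alternatives 0.000193 to 0.00483).

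The antisense genes of this locus carried reads as well. Dlx6os1, a long RNA that spans Dlx6 on the opposite strand without sharing exon bases with it, had 16, 11 and 18 reads at Week 1 and 84, 89 and 97 at Week 3. It rose by a log2 change of 2.52 ± 0.23 (edgeR adjusted p = 3.6e-05). Dlx6os2 shares 104 exon bases, 9.71% of the exonic length of Dlx6, and had 1, 1 and 0 reads at Week 1 and 8, 4 and 5 at Week 3. The library protocol describes no strand marking, so in those shared bases reads of Dlx6 and Dlx6os2 cannot be told apart. Dlx5, Dlx6 and Dlx6os1 were all higher at Week 3, each with no overlap between weeks.

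Dlx3 (chromosome 11, bases 95120117 to 95125296, plus strand, 3 exons) had 0.907, 1.22 and 1.15 CPM at Week 1 and 4.91, 6.48 and 4.27 CPM at Week 3. Again the weeks did not overlap, and replicate 2 was the highest library of each week. The mean rose from 1.09 ± 0.164 to 5.22 ± 1.14 CPM (SD, n = 3), a log2 change of 2.26 ± 0.23 (SE, edgeR adjusted p = 7.57e-05). The 95% intervals of the log2 change were 1.74 to 2.77 for Dlx3, 2.05 to 3.15 for Dlx5 and 1.81 to 3.52 for Dlx6, and all 3 overlap. The test of a difference between these genes was not made. The remaining Dlx genes were scarce: Dlx1 had 7, 15 and 7 reads at Week 1 and 9, 16 and 16 at Week 3, and Dlx2 had 8, 16 and 11 and then 11, 10 and 11. Neither passed the test (edgeR adjusted p = 0.391 and 0.730). Dlx4 had 1, 3 and 2 reads and then 1, 13 and 4, too few to be tested. Whether these genes differ from the member Dlx genes in their change was not tested.

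Msx1 (chromosome 5, bases 37820491 to 37824585, minus strand, 2 exons) had 5.86, 4.53 and 5.13 CPM at Week 1 and 3.40, 3.00 and 4.58 CPM at Week 3. Replicate 3 of Week 3 reached into the Week 1 range and the other two Week 3 libraries stayed below it. The mean was 5.17 ± 0.669 CPM at Week 1 and 3.66 ± 0.820 CPM at Week 3 (SD, n = 3), a log2 change of -0.50 ± 0.19 (SE, 95% interval -0.93 to -0.08, edgeR adjusted p = 0.0618). With the replicate number as a block, since same-numbered RNA libraries deviated together, the log2 change was -0.51 and Msx1 passed (edgeR adjusted p = 0.0306, range over the alternatives 0.0252 to 0.197). With replicate 2 of Week 1 left out it also passed (-0.59, adjusted p = 0.0364), as it did with replicate 3 of Week 3 left out (-0.69, adjusted p = 0.0252). The antisense gene Msx1os covers 58.9% of the exonic length of Msx1, 1137 bases, and had 1.01 to 1.18 times the reads of Msx1 in each library. Its log2 change was -0.42 ± 0.17 (edgeR adjusted p = 0.0800), and without strand marking the reads of the Msx1 and Msx1os transcripts cannot be told apart.

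Msx2 (chromosome 13, bases 53466881 to 53472780, minus strand, 2 exons) had 2.24, 1.92 and 2.09 CPM at Week 1 and 2.35, 1.55 and 1.46 CPM at Week 3. The highest of all 6 libraries was Week 3 replicate 1, so the weeks overlapped. The log2 change was -0.23 ± 0.24 (SE, 95% interval -0.77 to 0.32, edgeR adjusted p = 0.499), an interval that holds both a modest fall and a small rise. Msx3, the remaining Msx gene, had 0 counts in all libraries. Per kb, Msx1 was 2.65 to 2.94 times Msx2 at Week 1 and 1.62 to 3.50 times at Week 3.

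Foxa3 (chromosome 7, bases 19013283 to 19023539, minus strand, 2 exons) had 5.32, 4.12 and 5.94 CPM at Week 1 and 10.9, 10.1 and 12.4 CPM at Week 3. Every Week 3 library was above the Week 1 libraries. The mean rose from 5.13 ± 0.925 to 11.1 ± 1.21 CPM (SD, n = 3), a log2 change of 1.12 ± 0.15 (SE, edgeR adjusted p = 0.000405). Foxa2 (chromosome 2, bases 148042877 to 148046969, minus strand, 3 exons) had 1.51, 0.987 and 1.69 CPM at Week 1 and 1.24, 1.93 and 1.83 CPM at Week 3, with overlap between weeks. Its log2 change was 0.28 ± 0.28 (SE, 95% interval -0.36 to 0.91, edgeR adjusted p = 0.477) and turned to -0.05 with replicates 1 and 3 only. Foxa3 was the more abundant of both at either week, at 3.67 to 4.36 times the level of Foxa2 per kb at Week 1 and 5.45 to 9.12 times at Week 3. Foxa1 had 0 counts in all 6 libraries.

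**Figure D2:**
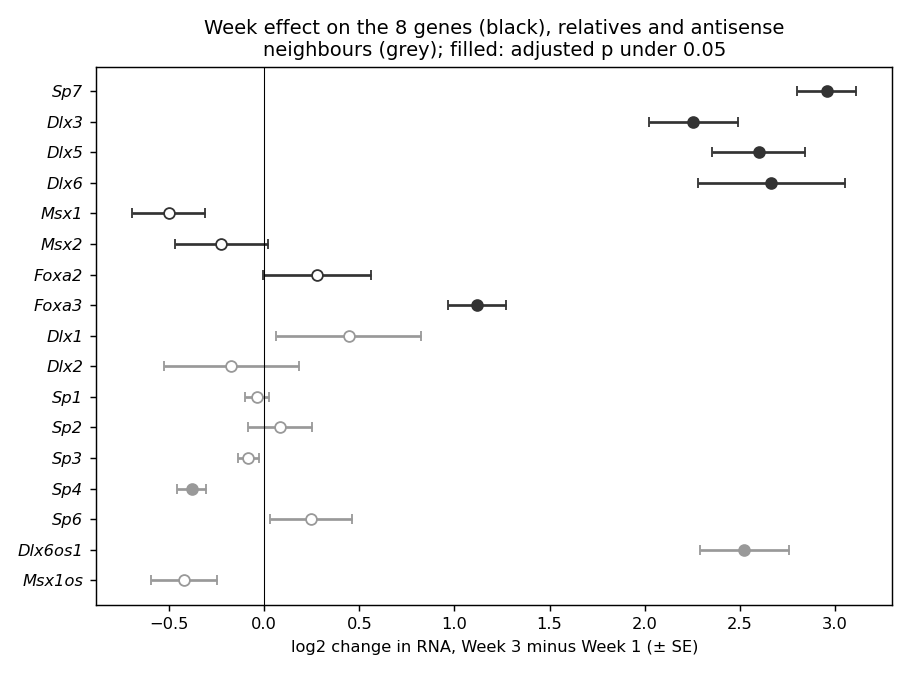
Log2 change in RNA from Week 1 to Week 3 with its SE (horizontal axis) for the 8 genes (black), their tested relatives and antisense neighbours (grey), filled where the edgeR adjusted p was under 0.05. Sp7, the 3 Dlx members and Dlx6os1 lie between 2.26 and 2.96, Foxa3 at 1.12, and the remaining genes between -0.50 and 0.44.

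Levels are comparable between genes only per length, so CPM was divided by kb of exon. At Week 1 the order was Sp7 at 4.35, Msx1 at 2.68, Foxa3 at 2.51, Dlx5 at 1.26, Msx2 at 0.963, Foxa2 at 0.656, Dlx3 at 0.418 and Dlx6 at 0.190 CPM per kb. Among neighbours in this order the libraries of Msx1 and Foxa3, of Dlx5 and Msx2, and of Foxa2 and Dlx3 overlapped. At Week 3 the order was Sp7 at 33.7, Dlx5 at 7.63, Foxa3 at 5.45, Dlx3 at 2.0, Msx1 at 1.89, Dlx6 at 1.25, Msx2 at 0.828 and Foxa2 at 0.783 CPM per kb. Here the libraries of Dlx3 and Msx1, of Dlx6 and Msx2, and of Msx2 and Foxa2 overlapped. Sp7 stood first at both weeks, Dlx5 moved from the fourth to the second place, and Msx1 from the second to the fifth. The ratio of Dlx5 to Dlx6 per kb ranged from 4.81 to 9.87 at Week 1 and from 4.94 to 7.69 at Week 3, so the weeks overlapped in the proportion of the paired genes. The ratio of Sp7 to Dlx5 ranged from 3.05 to 4.32 at Week 1 and from 3.79 to 5.39 at Week 3.

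**Figure D3:**
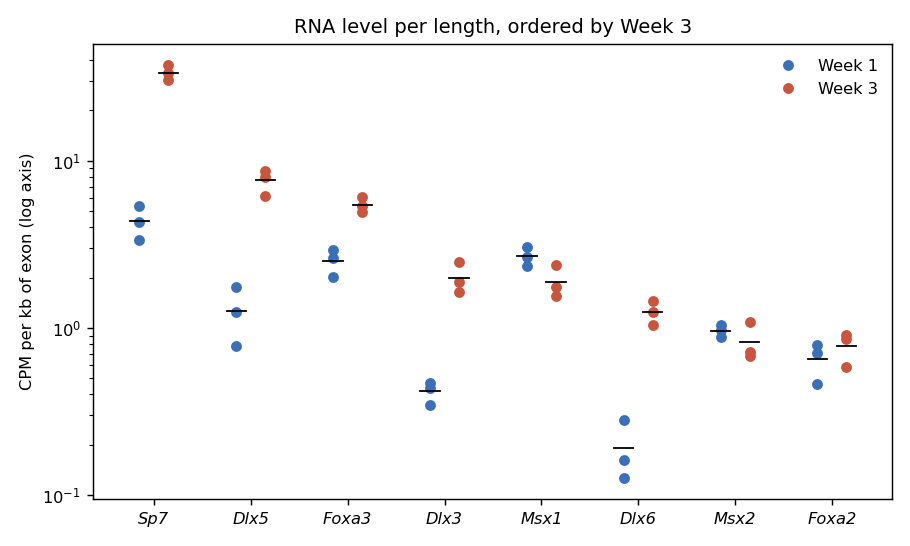
Level in CPM per kb of exon (vertical log axis) in each Week 1 (blue) and Week 3 (red) library, with the mean as a black line and genes ordered by Week 3. Sp7 leads at both weeks, with means of 4.35 and 33.7, and the means of Dlx5 and Dlx3 lie above that of Msx1 at Week 3.

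Runx2 and factors that work with it were counted as a list. Of 12 genes, 11 were tested, 7 rose and 2 fell (19.7% and 17.8% of all genes), with a median log2 change of 0.55 against -0.01 over all genes. Mef2c, a driver of hypertrophy, rose 4.91-fold (edgeR adjusted p = 3.07e-06) and Trps1, a GATA-type repressor in cartilage, 1.55-fold. Atf4, a stress-responsive factor that osteoblasts need, and Twist1, an inhibitor of Runx2, were the genes that fell, with log2 changes of -0.26 and -0.28, and their count was 0 once Week 1 replicate 1 was left out and 1 if Week 3 lacked replicate 1 or 3. The rise of Sp7, at 7.76-fold, was larger than the fold values of Mef2c, Runx2 and Trps1, a difference between genes that was not tested.

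BMP signalling induces Dlx5, Msx1 and Msx2 in several tissues. Of 21 genes for BMP ligands, receptors, SMADs, ID proteins and antagonists, all tested, 9 rose and 4 fell, with a median log2 change of 0.24, beside 19.7% and 17.8% of all genes. The share that fell was near that of all genes. Of the Id genes, direct targets of BMP, Id3 rose by a log2 change of 0.69 and Id2 fell by 0.49, and Smad7, an inhibitor of the pathway, also fell by 0.49. Grem1, a secreted BMP antagonist, rose by a log2 change of 0.63. The number that fell was 2 when replicate 1 or 3 of Week 1, or replicate 1 or 2 of Week 3, was left out. Dlx5 changed by more than any of these 4 genes, while the log2 changes of Msx1 and Msx2 were -0.50 and -0.23.

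Bone matrix and mineral genes, several of them known targets of Sp7 and Runx2, were mostly higher at Week 3. Of 17 tested bone matrix and mineral genes, 15 rose and 2 fell (19.7% and 17.8% of all genes), with a median log2 change of 2.39. Among those that rose, Bglap, Bglap2 and Mepe had at most 12 reads in any Week 1 library. Like Dlx6, they entered the test only through their Week 3 counts, which limits the comparison with all genes. The lists were chosen with earlier results of these data known. Enpp1 and Ank were the genes that fell, with log2 changes of -0.53 and -0.52. The peptidase Phex rose 53.1-fold, Ibsp, bone sialoprotein, 43.4-fold, Phospho1, a phosphatase that starts mineral formation, 5.23-fold, and Col1a2, a chain of type I collagen, 4.55-fold. Of 12 hypertrophic chondrocyte genes, which share some members with these lists, 11 rose and 0 fell, with a median of 2.52. Ihh, which rose, had 16, 8 and 17 reads at Week 1 and needed Week 3 counts to pass the filter. Of 11 chondrocyte markers, 5 rose and 0 fell, with a median of 0.21, beside the same 19.7% and 17.8% of all genes. In the chondrocyte list 2 fell without Week 1 replicate 2 or with replicates 1 and 3 only.

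Markers of cell types in which the members also act were counted beside them. Of 5 tested osteocyte markers 4 rose and 1 fell (19.7% and 17.8% of all genes). The list summed to 61.0 to 88.5 CPM at Week 1 and 190 to 206 CPM at Week 3. Pdpn, the gene that fell, averaged 64.8 CPM at Week 1, most of that sum, and 34.5 CPM at Week 3. Phex rose from 1.79 to 94.4 CPM, Dmp1 from 5.13 to 61.3 CPM, Mepe from 0.0853 to 2.94 CPM and Dkk1 from 0 to 2.07 CPM. Mepe and Dkk1 entered the test only through their Week 3 counts, which limits the comparison of this count with all genes. The part of osteocytes in the rise of Sp7, Dlx3 and Dlx5 was not tested. For Foxa2 and Foxa3, endoderm and liver markers summed to 1.51 to 2.16 CPM at Week 1 and 1.28 to 1.31 CPM at Week 3. Ttr, Afp, Sox17 and Foxa1 were at 0 in all libraries, and 0 genes of the list were called in either direction. Keratinocyte markers, relevant to Dlx3, summed to 6.33 to 7.44 CPM at Week 1 and 9.21 to 12.7 CPM at Week 3. Of them Krt5, Krt15, Ivl and Dsg3 were at 0 and Trp63 rose 2.14-fold (edgeR adjusted p = 0.00115).

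Markers of other cell types were summed in the same way, and their calls stand beside 19.7% of all genes higher and 17.8% lower. Smooth muscle markers summed to 128 to 144 CPM at Week 1 and 260 to 335 CPM at Week 3, with 4 of 6 tested genes higher. Pdgfrb, which other mesenchymal cells express too, averaged 104 and 158 CPM of these sums. Acta2 rose from 19.2 to 90.6 CPM (edgeR adjusted p = 0.00385) and Tagln from 10.8 to 37.4 CPM (edgeR adjusted p = 9.93e-07). Cnn1 rose from 1.44 to 2.61 CPM. Myh11, Des and Rgs5 averaged at most 1.08 CPM at Week 1 and at most 1.55 CPM at Week 3. Osteoclast markers summed to 206 to 243 and 245 to 275 CPM, with 1 gene higher and 2 lower. Ctsk and Itgb3, which are not confined to osteoclasts, carried nearly all of these sums, at 116 and 90.6 CPM at Week 1 and 203 and 55.9 CPM at Week 3. Atp6v0d2 fell from 9.03 to 1.51 CPM (edgeR adjusted p = 0.000213), and Itgb3 was the other gene called lower. Acp5 averaged 2.50 and 3.06 CPM, Ocstamp and Dcstamp had at most 3 reads per library and Calcr had 0. Adipocyte markers ranged from 126 to 401 CPM and then 119 to 331 CPM, with 0 of 11 tested genes higher and 1 lower, or 1 higher and 7 lower with the replicate block. The number lower was 0 with any one of Week 1 replicates 1 and 3 or Week 3 replicates 1 and 3 left out, and 2 with Week 3 replicate 2 left out. Macrophage markers ranged from 50.7 to 113 CPM and then 16.7 to 66.4 CPM, with 0 of 8 tested genes higher and 3 lower, or 5 lower with the replicate block and 1 once Week 1 replicate 1 was left out. Endothelial markers summed to 2.24 to 2.73 CPM and 1.70 to 2.38 CPM, and the 1 tested gene was not called. The part of these cells in the changes of Sp7, the Dlx genes and Foxa3 was not tested.

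The genes closest to each member in pattern were sought among 11071 genes that averaged at least 5 CPM over the 6 libraries, by the Euclidean distance between log2 CPM values centred on each gene's mean over the 6 libraries. Nearest to Sp7 were Loxl4 at a distance of 0.35, Pth1r at 0.40 and Dapk2 at 0.41, with log2 changes of 2.97, 2.75 and 3.06. Nearest to Dlx3 were Adgrd1, Mef2c and Itgbl1, to Dlx5 Wscd2, Kank4 and Car8, and to Dlx6 Iqgap2, Vdr and Chad. A prior count of 2 was added before the log, which shrinks differences in a gene with as few reads as Dlx6 (5, 3 and 2 at Week 1). The neighbours of Dlx6 had log2 changes of 2.40, 2.31 and 2.04, against 2.66 for Dlx6. Pth1r, the parathyroid hormone receptor, Vdr, the vitamin D receptor, and Chad, the cartilage protein chondroadherin, are thus among the neighbours in pattern. Nearest to Foxa3 were Jph2 at 0.13, Enpp2 at 0.16 and Gask1b at 0.18. H2-T24, Junb and Slc6a17 were nearest to Msx1, 5730480H06Rik, Snu13 and Mmgt2 to Msx2, and Fign, Efna5 and Adam4 to Foxa2.

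Methylation of CpG cytosines, the mark often found at silent CpG-rich promoters, was compared in a window from 1000 bases before to 500 after each transcript start. At the cytosines measured there, Dlx3, Dlx5, Dlx6, Msx1, Msx2 and Foxa3 were nearly unmethylated at both weeks, while Sp7 and Foxa2 carried intermediate methylation. In Dlx3, Dlx5 and Msx2 these cytosines all lay after the start. No promoter or gene body of the 8 genes passed the test at an adjusted p of 0.05. Of 15 member regions 0 were called by edgeR, which called 0% of all promoters and 0.0079% of all gene bodies. Of the 15, 1 had an unadjusted edgeR p under 0.05, which 6.26% of all promoters and 5.39% of all bodies reached. By limma, 0 of the member regions were called, and 0 of all promoters and gene bodies. With 3 libraries against 3, the exact permutation test of library means cannot go below p = 0.1.

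RefSeq promoter sequences of the GRCm38.p6 build, from 250 bases before to 50 after the start, were found for 4 of the 8 genes, Msx1, Msx2, Foxa2 and Foxa3. They are shown 5′ to 3′ on the gene's strand, with each CpG in capitals, because the density of these letters differs between Foxa2 and the others. Methylation was described for the wider windows. Within the printed bases, 31, 2, 7 and 10 cytosines were measured in Msx1, Msx2, Foxa2 and Foxa3. Those of Msx2 lay 15 and 32 bases after its start. A link between CpG density and methylation was not tested. The printed stretches span chr5:37824536-37824835 (Msx1), chr13:53472731-53473030 (Msx2), chr2:148046920-148047219 (Foxa2) and chr7:19023490-19023789 (Foxa3), all on the minus strand.
Msx1 promoter: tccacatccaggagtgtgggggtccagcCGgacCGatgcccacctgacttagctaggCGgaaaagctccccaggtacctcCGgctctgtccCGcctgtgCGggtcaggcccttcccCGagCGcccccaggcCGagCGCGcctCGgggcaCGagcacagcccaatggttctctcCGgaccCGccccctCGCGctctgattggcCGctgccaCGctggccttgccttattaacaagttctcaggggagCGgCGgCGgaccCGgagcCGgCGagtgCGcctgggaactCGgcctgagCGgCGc
Msx2 promoter: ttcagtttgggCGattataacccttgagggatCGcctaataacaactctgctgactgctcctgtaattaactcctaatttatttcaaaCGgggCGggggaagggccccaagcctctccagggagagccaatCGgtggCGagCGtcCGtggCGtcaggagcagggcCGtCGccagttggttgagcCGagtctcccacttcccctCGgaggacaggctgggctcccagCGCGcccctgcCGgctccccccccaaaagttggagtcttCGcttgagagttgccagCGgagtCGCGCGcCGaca
Foxa2 promoter: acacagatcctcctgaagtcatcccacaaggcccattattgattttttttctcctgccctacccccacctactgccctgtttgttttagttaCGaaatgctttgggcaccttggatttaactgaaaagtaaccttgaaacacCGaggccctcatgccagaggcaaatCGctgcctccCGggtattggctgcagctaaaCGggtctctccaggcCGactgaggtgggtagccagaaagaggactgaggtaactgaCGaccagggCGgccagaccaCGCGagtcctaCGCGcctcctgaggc
Foxa3 promoter: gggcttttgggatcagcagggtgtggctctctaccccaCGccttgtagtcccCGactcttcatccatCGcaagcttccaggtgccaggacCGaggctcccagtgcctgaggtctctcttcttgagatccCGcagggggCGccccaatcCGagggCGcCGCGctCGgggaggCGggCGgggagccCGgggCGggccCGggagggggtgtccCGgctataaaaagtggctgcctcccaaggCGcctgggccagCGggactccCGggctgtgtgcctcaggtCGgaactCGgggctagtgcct

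These stretches hold 29 CpGs in Msx1, 22 in Msx2, 12 in Foxa2 and 22 in Foxa3, against a median of 7 over 32851 promoters of the same length. Their GC content is 70%, 61%, 54.3% and 69%. The GC box letters GGGCGG, the kind of site that Sp proteins bind, occur on either strand in all 4, once in Msx1, Msx2 and Foxa2 and at 2 places in Foxa3, and in 35.7% of all promoters. The homeodomain core TAATTA occurs in Msx2 alone of the 4 and in 5.29% of all promoters, and the letters TATAAA occur in Foxa3 alone and in 13.6%. Neither TGTTTAC, a forkhead site present in 3.65% of promoters, nor TGTGGT, a RUNX site present in 16.8%, is found in these windows. Both strands were searched, none of these motifs contains another, and a match describes the sequence only.

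Sp7 had 4 shared cytosines in its promoter window, at 130 and 112 bases before and 50 and 83 bases after the start. Their mean methylation was 35.4%, 24.2% and 21.8% in the Week 1 libraries and 19.8%, 7.14% and 26.3% in the Week 3 libraries. The weeks overlapped, and Week 3 replicate 2 was the lowest. The means were 27.1% ± 7.25 and 17.8% ± 9.76 (SD, n = 3, exact permutation p = 0.4, 2-sided), and the log2 change in the odds of methylation was -0.91 ± 0.43 (edgeR, p = 0.0465, adjusted p = 0.790). This value was -0.38 with Week 3 replicate 2 left out, and -1.62 with an adjusted p of 0.0465 when replicate 3 of that week was left out (adjusted p over the alternatives 0.0465 to 0.941). The promoter of Sp7 was more methylated than 93.3% of 12627 promoters, whose median was 0.666%.

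Within the body of Sp7, 9 cytosines averaged 36.8%, 37.1% and 34.7% at Week 1 and 29.9%, 25.2% and 31.6% at Week 3. The site means of all Week 3 libraries were below those of Week 1, with means of 36.2% ± 1.33 and 28.9% ± 3.31 (SD, n = 3, exact permutation p = 0.1). Over summed reads the weeks overlapped, with Week 3 replicate 2 at 38.1% against 36.4% to 39.2% at Week 1 (edgeR adjusted p = 0.885). Among 1000-base tiles, the one with the smallest p at any member lay in the single intron of Sp7, at chr15:102360001-102361000, centred 5.83 kb past the start, and it was chosen after its values were seen. Its 3 cytosines, from 2 CpGs, averaged 70.7%, 74.4% and 72.4% at Week 1 and 58.5%, 49.4% and 53.4% at Week 3. The means were 72.5% ± 1.84 and 53.8% ± 4.53 (SD, n = 3, exact permutation p = 0.1), and the region did not pass over all tiles (edgeR p = 0.00339, adjusted p = 0.806).

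The surrounding 150 bases of that intron, chr15:102360239-102360388 of GRCm38.p6 on the minus strand, are shown with both measured CpGs in capitals, as they carry this difference.
Sp7 intron region: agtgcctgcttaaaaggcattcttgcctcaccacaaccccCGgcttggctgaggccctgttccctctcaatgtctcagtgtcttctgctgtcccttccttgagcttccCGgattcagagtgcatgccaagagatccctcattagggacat

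At the first of these CpGs in transcript order, read on the reverse strand at base 102360348, methylation was 62.3%, 63.5% and 70.6% at Week 1 and 50%, 33.3% and 31.8% at Week 3. At the other, the forward cytosine at base 102360279 had 67.1%, 83.3% and 83.3% and then 60.9%, 64.9% and 66.7%, and the reverse cytosine at base 102360280 had 82.8%, 76.4% and 63.2% and then 64.5%, 50% and 61.7%. The weeks did not overlap at the first or at the forward cytosine of the second, and they did at its reverse cytosine. The stretch holds 2 CpGs in all and 1 match to the RUNX letters TGTGGT, on the strand opposite to the one printed. A match is not a site, and no binding was measured here.

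Foxa2 had the other intermediate promoter, more methylated than 92.8% of promoters. Its 10 cytosines averaged 21.3%, 25.2% and 15.0% at Week 1 and 17.6%, 19.5% and 16.3% at Week 3, with overlap. The means were 20.5% ± 5.15 and 17.8% ± 1.63 (SD, n = 3, exact permutation p = 0.5; edgeR adjusted p = 0.831). Weekly means of single cytosines in this window ran from 2.13% to 63.5%. The tile centred at -0.53 kb from the start, with 4 cytosines, averaged 28.8% and 26.4%. The tile at 0.47 kb, with 39 cytosines, averaged 2.92% and 3.26%, and that at -1.53 kb, with 15, averaged 0.307% and 0.135%. The body of Foxa2 was low in methylation, with 77 cytosines at 5.83% ± 1.70 and 8.0% ± 0.769 (SD, n = 3, exact permutation p = 0.1), and over summed reads the weeks overlapped (edgeR adjusted p = 0.887). In a tile centred 1.47 kb past the start, chosen after its values were seen, the mean was 3.78% ± 1.46 at Week 1 and 8.36% ± 1.93 at Week 3 without overlap (edgeR adjusted p = 0.907).

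The measured promoter cytosines of the Dlx genes that rose were close to 0% methylation at both weeks. They lay 23 to 500 bases after the start in Dlx3 and 174 to 224 bases after it in Dlx5. The part of these 2 windows before the start was thus not measured. In Dlx6 they lay at -53 to 13 bases from the start. Dlx3, with 22 cytosines, averaged 1.42% ± 0.545 at Week 1 and 0.689% ± 0.772 at Week 3 (SD, n = 3). Dlx5 averaged 0.060% ± 0.105 and 0.486% ± 0.841 over 6 cytosines, and Dlx6 0.833% ± 0.812 and 0.118% ± 0.205 over 6 cytosines. All 3 had overlapping weeks, so their RNA rose with no methylation difference detectable at this depth at these cytosines. Their bodies differed among themselves: Dlx3 averaged 6.27% ± 2.25 and 5.03% ± 1.63, Dlx5 42.9% ± 2.97 and 39.1% ± 10.9, and Dlx6 40.9% ± 0.998 and 44.4% ± 1.95 (SD, n = 3). The site means of the Dlx6 body did not overlap between weeks (exact permutation p = 0.1), but over summed reads the weeks overlapped (edgeR adjusted p = 0.931). In Dlx5 the wide Week 3 spread came from replicate 2, at 26.5% against 45.7% and 45.1% in replicates 1 and 3. In Dlx6, a tile centred 1.17 kb past the start averaged 71.7% ± 1.17 and 79.3% ± 8.75, so a highly methylated stretch lay inside a gene whose RNA was higher at Week 3.

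Msx1 and Msx2 were read over 54 and 27 promoter cytosines, those of Msx2 all after the start. Msx1 averaged 0.628%, 0.860% and 1.36% at Week 1 and 0.335%, 0% and 0.532% at Week 3, with no overlap of these site means (exact permutation p = 0.1). Over summed reads, which edgeR tested, the weeks overlapped (adjusted p = 0.869). Both means, 0.949% ± 0.375 and 0.289% ± 0.269 (SD, n = 3), were near the promoter median. Msx2 averaged 0.404% ± 0.502 and 0.343% ± 0.309, with overlap. The body of Msx1 was at 35.1% ± 3.47 and 35.8% ± 2.52 over 9 cytosines, and Msx2 had 2 covered body cytosines, too few to be tested. A tile centred 6.08 kb past the start of Msx1 and outside the gene, again chosen after its values were seen, averaged 28.5% ± 2.83 and 19.9% ± 3.48 without overlap (edgeR adjusted p = 0.907).

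Foxa3 had a promoter at 2.37% ± 0.400 and 1.66% ± 0.840 over 34 cytosines (SD, n = 3), with overlapping weeks. Its body was the most methylated of the 7 tested, with 50.1%, 50.3% and 51.5% at Week 1 and 53.6%, 57.8% and 53.1% at Week 3. The site means of all Week 3 libraries were above those of Week 1, with means of 50.6% ± 0.750 and 54.8% ± 2.60 (SD, n = 3, exact permutation p = 0.1). Over summed reads the weeks overlapped, with Week 3 replicate 1 at 45.9% against 44.6% to 46.5% at Week 1 (edgeR adjusted p = 0.885). The median over all 12710 gene bodies was 62.2%, so Foxa3, Dlx5, Dlx6, Msx1 and Sp7 lay below the middle of the range and Dlx3 and Foxa2 near its lower end, above 9.85% and 10.6% of bodies.

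**Figure D4:**
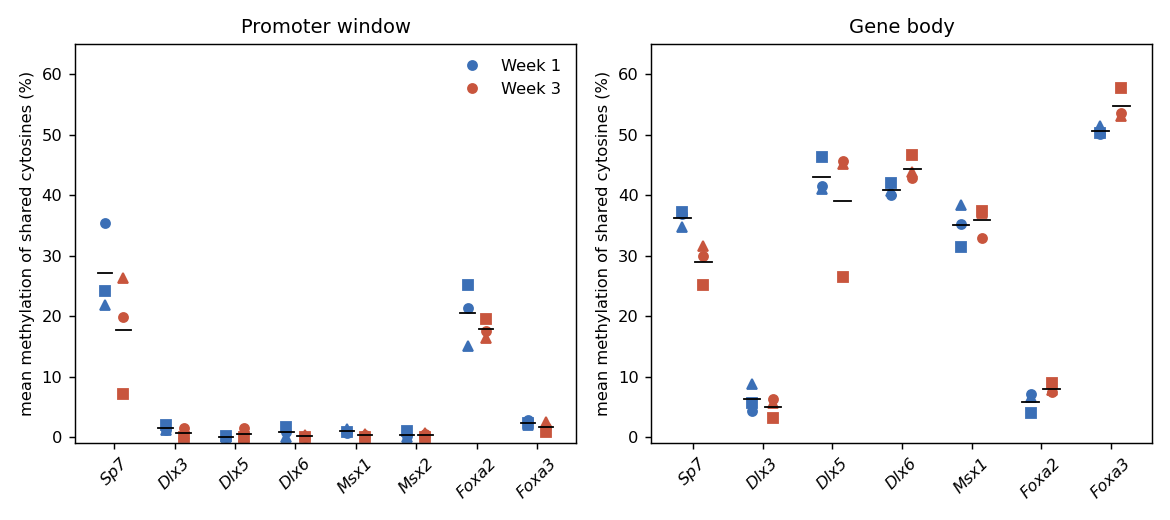
Mean methylation in percent (vertical axes) of the shared cytosines in the promoter window (left) and gene body (right) of each gene, per Week 1 (blue) and Week 3 (red) library, with the mean as a black line and circle, square and triangle for replicates 1, 2 and 3. Sp7 and Foxa2 have promoters between 7.14% and 35.4%, the other six lie under 3%, and bodies range from 3.21% in Dlx3 to 57.8% in Foxa3.

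Across the 51 tiles within 5000 bases of the members, 0 were called by edgeR, against 0.00704% of 71017 tiles in all, and 3 had an unadjusted p under 0.05. That is 5.88%, near the 5.53% of all tiles. Of the 703 cytosines at the members, 40 had no overlap between the weeks, 16 higher and 24 lower at Week 3. That is 5.69%, against 5.34% of all 724670 shared cytosines, a share close to the background. By gene, 13 of 161 such cytosines were at Msx1, 10 of 137 at Foxa2, 6 of 105 at Msx2, 4 of 54 at Sp7, 3 of 86 at Dlx3, 2 of 100 at Foxa3, and 1 each of 22 at Dlx5 and 38 at Dlx6.

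**Figure D5:**
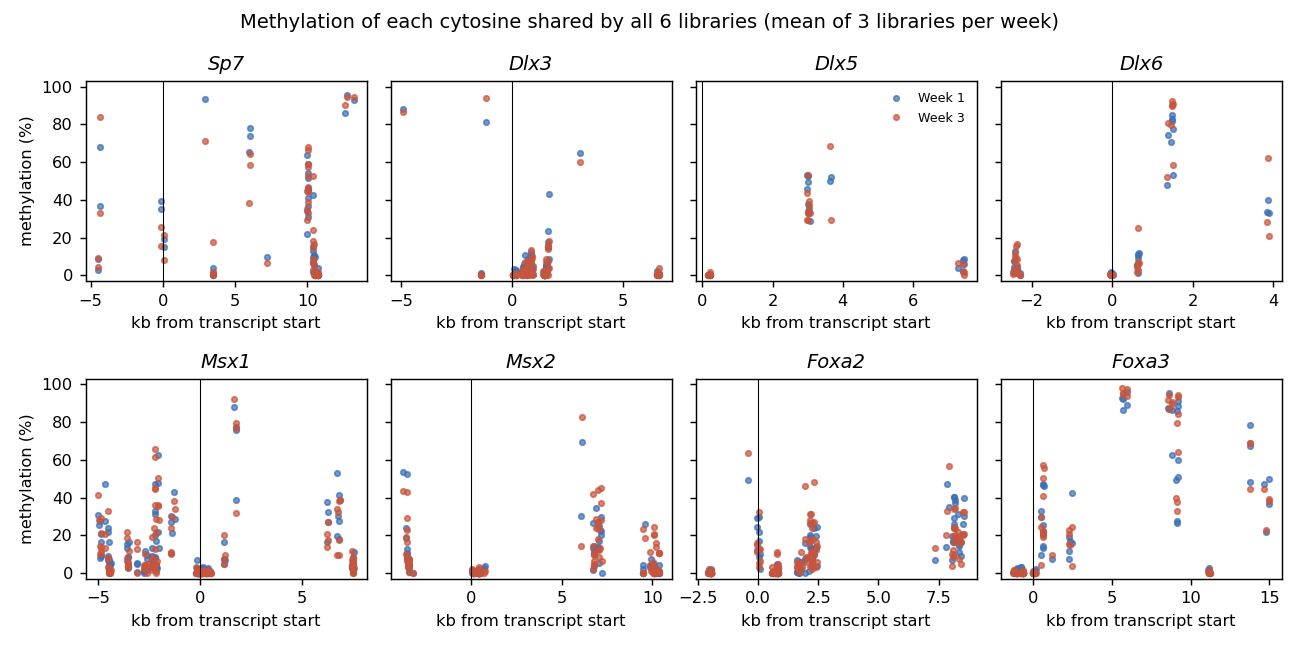
Methylation in percent (vertical axes) of each cytosine shared by all 6 libraries against its distance in kb from the transcript start (vertical line), as the mean of 3 libraries for Week 1 (blue) and Week 3 (red). Low values lie just past the start of Dlx3, Dlx5, Dlx6, Msx1 and Msx2, and also just before it in Dlx6 and Msx1. No cytosine was measured just before the start of Dlx3, Dlx5 and Msx2. Intermediate values lie near the start of Sp7 and Foxa2, and the Foxa3 body reaches above 90%.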

How the data were processed

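RNA was counted in 6 libraries and CpG methylation in 6 ERRBS libraries. The authors deposited raw counts per RefSeq transcript: 30048 transcripts, of which 394 without a gene symbol held 1.53% of counts and stayed in as genes of their own. The submitters' processing notes name CASAVA 2.17, STAR with mm10, featureCounts and Bismark. Other versions and the strand setting were not given in the sources used here. For ERRBS the authors deposited, per the file headers, the coverage of each cytosine and the percent of reads showing C or T, from which the methylated reads were recovered by rounding.

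Tests of RNA used edgeR 4.0.16 under R 4.3.3 (TMM, filterByExpr, robust quasi-likelihood F test, Benjamini-Hochberg over all 14323 genes, threshold 0.05). CPM values are scaled by TMM library size, and each SE is the size of the log2 change divided by the root of F. Methylated and unmethylated reads were summed per promoter, gene body outside the promoter or 1000-base tile with at least 3 cytosines, and tested with edgeR's quasi-likelihood model with a library term, strands separate. Its dispersion was set to 0, the spread being left to the quasi-likelihood part, after a version with a shared dispersion recovered no known change in simulated data; this choice was made after a first look at the data. Both tests were tested on simulated data. Methylation means are of site percentages, with 2-sided exact permutation tests. Reads carry no molecular identifiers, so floors cover counting error only.

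RNA replicate numbers paired the libraries: deviations of same-numbered libraries correlated at 0.259, 0.376 and 0.194, and others at -0.276 to 0.0606. The labels do not say what a number shares. Named genes are the 8 members, their family and antisense neighbours, the 3 nearest patterns, and, from each list, up to 4 genes lowest in adjusted p; others named were chosen after their values were seen, and some genes that the rule selects are left out of the text. The members and lists were chosen with earlier results of these data known. Alternatives were DESeq2 1.42.0, its size factors, no filter, summed transcripts, the replicate block, each library left out, replicates 1 and 3 only (added after seeing the data), a coverage of 20, a promoter window of 500 bases to either side, and limma 3.58.1 on site means.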

Additional observations from a re-analysis of the deposited data

How the results depend on the processing

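Sp7, Dlx3, Dlx5, Dlx6 and Foxa3 were higher in all 12 RNA alternatives, and Msx2 and Foxa2 passed in none. Log2 changes of the 8 genes kept their direction and call in 92 of 96 cases. The exceptions were Msx1, which passed with the replicate block (-0.51) and had leave-one-out values of -0.69 to -0.37, so that 1 member was lower with the block and 0 to 1 with a library left out, and Foxa2, which turned to -0.047 with replicates 1 and 3 only, a setting chosen after seeing the data. Among relatives, Dlx2 turned to 0.067 without Week 1 replicate 2 (leave-one-out range -0.39 to 0.067) and 0.19 with replicates 1 and 3 only. Sp1 turned to 0.0075 without Week 1 replicate 3 (range from -0.10), and Sp2 to -0.051 without Week 1 replicate 2 (range -0.051 to 0.23) and -0.0036 with replicates 1 and 3 only. The pairing block changed no call of another member, and beside the marker lists named no count by over 1.5 times except chondrocyte markers lower (1 against 0). RNA genes called ranged from 3980 to 6306. Adipocyte markers called lower numbered 0 to 7 and macrophage markers called lower 1 to 5 over the alternatives.

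In ERRBS the replicate numbers did not pair the libraries (correlations 0.0256, -0.0205 and -0.0304). Promoters called over the genome, 0 in the fit reported, numbered 32 at a coverage of 20, 201 with the replicate block and 3 to 219 with a library left out. Gene bodies, 1 in that fit, numbered 0, 2 and 0 to 5, and 0 with limma. Tiles, 5 in that fit, numbered 20, 331 and 2 to 62. Tiles called at the members were 0 throughout. The Sp7 promoter passed without Week 3 replicate 3 alone (leave-one-out range -1.62 to -0.38). Some log2 odds changes, none of which passed, turned sign: the Dlx5 promoter, 2.12 in the fit reported, without Week 3 replicate 1 (-1.27, range to 3.22), the Msx2 promoter, -0.91 in that fit, without Week 1 replicate 2 (0.71, range from -2.04), and the Dlx3 body at a coverage of 20 (-0.26), with the block (-0.081), with limma (-0.28) and with a library left out (-0.10 to 0.14). So did the Dlx6 body at a coverage of 20 (-0.66) and without Week 3 replicate 2 (range -0.0083 to 0.35), the Dlx5 body without Week 3 replicate 2 (0.091, range from -0.76), and, without Week 1 replicate 2, the bodies of Msx1 (range -0.0047 to 0.37) and Foxa2 (range -0.0064 to 0.73). The cause was not tested. Depth limits Dlx6, with 10 reads at Week 1, and all promoters near 0% methylation.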
